A study of Drosophila melanogaster with 3 samples.

Results

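Divergent promoter pairs are sites where a gene on the minus strand and a gene on the plus strand start back to back, so that a short stretch of DNA carries the promoters of both. HmgD peaks at such sites were taken from the 2964 peaks that passed the authors' irreproducible discovery rate (IDR) step. A peak counted when its summit lay within 500 bp of the transcription start site (TSS) of a minus-strand and of a plus-strand protein-coding gene, with the minus-strand TSS on the left and both TSSs at most 1000 bp apart. By this rule 668 of 2964 IDR peaks were members, or 22.5% (95% Wilson interval 21.1 to 24.1%), and they touched 1343 genes (9.63% of all protein-coding genes). Of the other IDR peaks, 1357 had coding TSSs of 1 strand only in the same window and are called one-strand promoter peaks, 4 had TSSs of both strands that were not back to back, and 935 had no coding TSS there. The rule used positions only, not signal.

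The samples were 3 biological replicates of a single group of Drosophila melanogaster embryos, of pooled sex and 0 to 24 h old. The embryos belonged to a transgenic line with a stable HmgD fusion bearing green fluorescent protein at its C terminus, and chromatin was precipitated with an anti-GFP antibody. No untreated or second group was analysed. The labels do not say which regulatory sequence drives the fusion or whether untagged HmgD was also present, and a whole embryo of this age span mixes many cell types and stages, so a peak gives no cell type.

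HmgD is the fly's abundant high-mobility-group box protein. Its box inserts into the minor groove and bends DNA with little preference for sequence, and it is known as a chromatin protein of early embryos, before linker histone H1 accumulates. In the compact fly genome many housekeeping genes start head to head. Their promoters rarely use a TATA box and commonly carry the DNA replication-related element (DRE, the word TATCGATA bound by DREF), the CGATA words bound by BEAF-32, or Motif 1 (here GGTCACAC, the core bound by M1BP).

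The DNA under 7 members is shown first because the position of the summit between the start sites, and the presence or absence of these words, are the subjects of the results below. The stretches were chosen by signal: the strongest member, the 3 strongest with TATCGATA, the 2 strongest with GGTCACAC and the strongest remaining one with neither. Each is 300 bases of the plus strand of the Release 6 (dm6) RefSeq sequence, read 5′ to 3′, with the IDR summit just after the first 150 bases. Capitals mark TATCGATA, which reads the same on both strands, or GGTCACAC on either strand, which appears as GTGTGACC where it lies on the minus strand. The stretches are chr3L:22878738-22879037 for Chro and Ssl1, chr3L:9426746-9427045 for Atat and Shc, chr3R:9513000-9513299 for Ras85D and Rlb1, chrX:10768220-10768519 for Atg8a and BTBD9, chr2L:10200865-10201164 for Ripalpha and RpL7, chr2L:414721-415020 for AP-2alpha and ebi, and chr2L:13835294-13835593 for mRpS23 and CenG1A.
Chro and Ssl1: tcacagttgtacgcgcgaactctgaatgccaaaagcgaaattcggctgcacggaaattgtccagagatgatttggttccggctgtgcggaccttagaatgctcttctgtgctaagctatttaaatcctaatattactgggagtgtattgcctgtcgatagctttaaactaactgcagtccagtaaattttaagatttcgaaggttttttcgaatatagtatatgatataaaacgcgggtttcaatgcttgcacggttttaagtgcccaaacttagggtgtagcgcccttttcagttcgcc
Atat and Shc: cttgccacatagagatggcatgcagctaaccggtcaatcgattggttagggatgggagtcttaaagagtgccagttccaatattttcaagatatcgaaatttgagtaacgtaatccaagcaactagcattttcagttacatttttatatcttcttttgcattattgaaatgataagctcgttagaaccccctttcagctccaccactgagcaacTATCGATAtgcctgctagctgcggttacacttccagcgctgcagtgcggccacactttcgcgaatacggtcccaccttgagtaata
Ras85D and Rlb1: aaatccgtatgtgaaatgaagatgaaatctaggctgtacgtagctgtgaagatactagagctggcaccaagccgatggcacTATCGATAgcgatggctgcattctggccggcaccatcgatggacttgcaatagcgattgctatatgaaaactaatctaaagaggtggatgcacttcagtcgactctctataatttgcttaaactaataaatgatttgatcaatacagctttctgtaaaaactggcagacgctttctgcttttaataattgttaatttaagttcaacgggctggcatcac
Atg8a and BTBD9: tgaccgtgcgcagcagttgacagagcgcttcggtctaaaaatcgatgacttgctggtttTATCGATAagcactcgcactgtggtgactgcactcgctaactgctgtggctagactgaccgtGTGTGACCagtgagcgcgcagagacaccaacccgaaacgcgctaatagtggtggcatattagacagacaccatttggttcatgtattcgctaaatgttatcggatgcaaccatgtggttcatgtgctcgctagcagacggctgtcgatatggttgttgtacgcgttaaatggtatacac
Ripalpha and RpL7: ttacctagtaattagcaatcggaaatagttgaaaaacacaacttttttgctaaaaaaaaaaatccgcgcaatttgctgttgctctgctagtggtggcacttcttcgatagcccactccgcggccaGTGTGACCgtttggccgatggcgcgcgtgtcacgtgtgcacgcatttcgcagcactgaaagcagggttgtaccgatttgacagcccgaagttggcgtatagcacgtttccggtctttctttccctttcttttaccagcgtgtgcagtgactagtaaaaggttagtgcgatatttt
AP-2alpha and ebi: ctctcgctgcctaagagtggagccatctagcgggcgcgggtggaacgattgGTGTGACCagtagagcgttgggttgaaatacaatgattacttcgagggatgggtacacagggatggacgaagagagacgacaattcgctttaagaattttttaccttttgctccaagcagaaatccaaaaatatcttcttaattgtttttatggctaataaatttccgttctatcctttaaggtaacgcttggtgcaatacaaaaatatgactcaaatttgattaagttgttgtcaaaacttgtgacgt
mRpS23 and CenG1A: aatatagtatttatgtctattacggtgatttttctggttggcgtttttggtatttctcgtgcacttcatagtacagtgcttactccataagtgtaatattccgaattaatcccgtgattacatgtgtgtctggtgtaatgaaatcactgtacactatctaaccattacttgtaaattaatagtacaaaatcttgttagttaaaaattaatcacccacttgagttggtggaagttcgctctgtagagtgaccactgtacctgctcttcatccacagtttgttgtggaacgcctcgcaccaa

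In the stretch of Atat and Shc, the minus-strand TSS (Atat, an alpha-tubulin acetyltransferase) is base 13. The plus-strand TSS (Shc, an adaptor of receptor tyrosine kinases) is base 265. The whole interval between the start sites is thus visible, with the summit inside it. Ras85D, the fly's Ras GTPase, starts at base 68, and its partner Rlb1 starts beyond the end of the stretch. Atg8a, the ubiquitin-like protein of autophagosomes, starts at base 119 and BTBD9 beyond the end, and this stretch alone of the 7 holds both words. For Ripalpha and RpL7, a protein of the large ribosomal subunit, the start sites at bases 110 and 140 are only 30 bp apart and the GTGTGACC lies between them. AP-2alpha, a clathrin adaptor subunit, starts at base 57, inside its GTGTGACC, and ebi beyond the end. Chro, a chromodomain protein of interbands, starts at base 247 and Ssl1 beyond the end, so the summit of the strongest member fell inside the Chro transcript and not between the genes. In mRpS23 and CenG1A the plus-strand TSS is base 271 and the minus-strand TSS lies outside the stretch.

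The 10 strongest members paired genes of unlike function, and 4 of them held a ribosomal protein gene. Signal is the authors' own peak value and was compared only within a list. In the IDR list members reached 943, with a median of 167 (quartiles 137 and 223). Chro and Ssl1, a subunit of the general transcription factor TFIIH, had the highest signal of 943, at chr3L:22878741-22879053, and ranked 4, 7 and 16 by signal in replicates 1, 2 and 3. Atat and Shc had 820 and ranks of 11, 15 and 20. Both peaks were thus among the few strongest candidates of each replicate.

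Mitochondrial and cytoplasmic ribosomal protein genes supplied 4 of these 10 pairs. Over all 668 members, 18 mitochondrial and 29 cytoplasmic ribosomal protein genes were among the 1343 genes touched. The peak of mRpS23 (small mitoribosomal subunit) and CenG1A (an Arf GTPase-activating protein) had a signal of 765 and ranks of 15, 18 and 21. Art3, an arginine methyltransferase, and mRpS10 shared a peak of 759 with ranks of 9, 30 and 22. Ripalpha and RpL7 had 536 with ranks of 57, 33 and 44, and RpS27 and Nup37, a nuclear pore protein, had 535 with ranks of 36, 47 and 56. Pdrg1 and Pal1, an enzyme of peptide amidation, had 666 with ranks of 17, 31 and 33. Tcs5, a kinase of the tRNA-modifying KEOPS complex, and CHMP2B, of the membrane-severing ESCRT-III complex, had 628 with ranks of 20, 38 and 49. CG5757 and CG5098 had 597 with ranks of 30, 37 and 45, and Fbw5 and CG9147 had 533 with ranks of 33, 40 and 118. Replicate 3 placed Fbw5 lower than the others did, while the remaining 9 peaks stayed within the strongest 57 candidates of each replicate.

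Some members of lower signal ranked very differently in the replicates. The peak of Fur1, a furin protease, and Vps33B, a vesicle tethering protein, had a signal of 379 and ranked 53, 97 and 739. TppII and ND-MWFE, a subunit of respiratory complex I, had 308 and ranked 65, 310 and 1376. These peaks were strongest in replicate 1. The opposite order occurred for eIF3h, a translation initiation factor subunit, and senju, whose peak of 258 ranked 4129, 226 and 133, and for Sf3a1, a splicing factor, and Irc, a catalase, with 256 and ranks of 1040, 454 and 216. Near-equal ranks occurred for Dhc64C, the dynein heavy chain, and LeuRS-m, the mitochondrial leucyl-tRNA synthetase, with 268 and ranks of 386, 363 and 394. The plot of ranks shows both kinds.

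**Figure D1:**
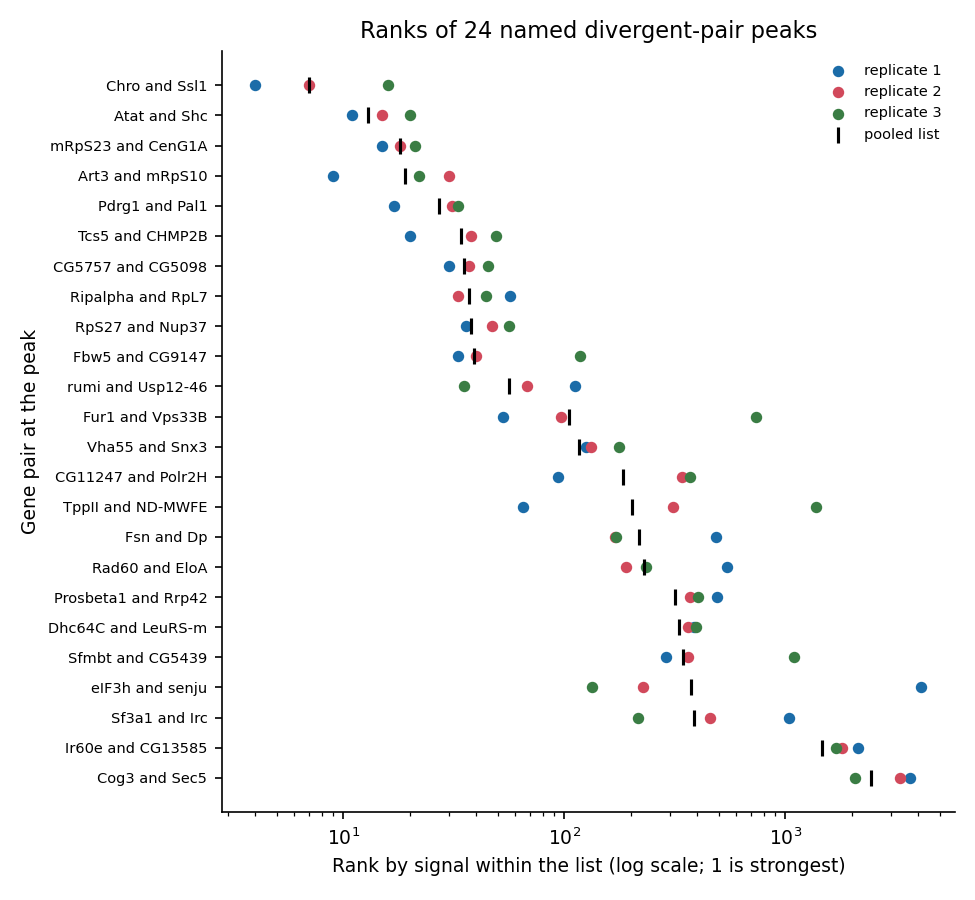
Rank by signal (log axis, 1 is the strongest) of 24 named divergent-pair peaks in each replicate's candidate list (coloured points) and in the pooled list (black bars), ordered by IDR signal. The points lie close together for the strongest pairs, and spread widely for pairs such as TppII and ND-MWFE (65 to 1376) and eIF3h and senju (133 to 4129).

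Of the 184 members with a gene on any of the 18 lists described further on, 2 (1.09%) had both genes on 1 list, and both were trafficking pairs. Of the 564 annotated divergent pairs with a listed gene, 15 (2.66%) had both genes on 1 list, so such pairs are few in the annotation too. Vha55, a vacuolar proton pump subunit, and Snx3, a sorting nexin that retrieves cargo from endosomes, shared a peak of 364 with ranks of 126, 132 and 177. Cog3, of the Golgi tethering complex, and Sec5, of the exocyst, shared a peak of 126 with ranks of 3670, 3309 and 2065, near the lower end of the IDR list.

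Divergent-pair peaks, like one-strand promoter peaks, were a larger share of the strong candidates than of the weak ones. In the pooled candidate list they made up 28.3% of the strongest 300 (85 of 300, interval 23.5 to 33.7%), 25.9% from there to rank 1000 and 20.5% from there to rank 2964. Below the length of the IDR list the share was 12.3% down to rank 6000, 6.02% from there to rank 12000 and 2.15% for the last 10000 candidates. Within the IDR list, 57.2% of members (382 of 668) lay among the 1482 stronger peaks, against 50.2% of one-strand promoter peaks and 44.7% of peaks away from coding TSSs. The highest signals of all were not members: one-strand promoter peaks reached 1399 and peaks away from TSSs 1634. At the edge of the rule, 27 members with the farther TSS 451 to 500 bp from the summit had a median signal of 161, and 42 peaks with it up to 50 bp beyond the limit had 147.

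The higher signal of members did not hold in every replicate. Of 668 members, 656, 660 and 657 had a matching candidate in replicates 1, 2 and 3, and their median rank percentile was 96.2, 95.1 and 94.5. One-strand promoter peaks had 94.2, 94.8 and 94.9. The difference was 2.01, 0.278 and -0.387 percentile points, a mean of 0.633 ± 1.24 (SD, n = 3; two-sided exact sign-flip permutation p = 0.750, where 3 replicates cannot give less than 0.25). Replicate 1 placed members higher, replicate 3 slightly lower. Members were among the strongest 2964 candidates in 86.5% of cases in replicate 1 (578), 77.5% in replicate 2 (518) and 66.0% in replicate 3 (441), while one-strand peaks were at 71.0, 77.2 and 72.4%. That difference averaged 3.15 ± 11.2 percentage points (SD, n = 3; exact sign-flip permutation p = 0.750).

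GC content moved with this order of the replicates. The median GC within 100 bp of the summit of each replicate's strongest 2964 candidates was 39.3, 42.3 and 45.3%, and the divergent-pair share of the same candidates was 28.1, 21.1 and 16.9% (833, 624 and 500 peaks). The part of GC or of any library property in the differences between replicates was not tested. All 3 replicates held 335 members among their strongest (50.1%, interval 46.4 to 53.9%), against 43.4% of all IDR peaks and 42.8% of one-strand promoter peaks. A further 120 members were among the strongest of replicates 1 and 2 only, 67 of replicate 1 only, 16 of replicate 3 only, and 11 of none.

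HmgD peaks occupied a minority of the divergent pairs that the annotation offers, and close pairs more often than distant ones. Among 13945 protein-coding genes on the arms, 5052 (36.2%) belonged to 2667 such pairs, and 713 pairs (26.7%, interval 25.1 to 28.4%) had a member peak. By the strongest 2964 candidates of each replicate the share was 32.7, 24.9 and 19.3% (25.6 ± 6.76%, SD, n = 3). A candidate of any rank in the pooled list lay at 1608 pairs (60.3%). The median distance between TSSs was 231 bp in pairs with a peak and 352 bp in pairs without.

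Of pairs whose TSSs lay 1 to 150 bp apart, 41.6% had a peak (265 of 637, interval 37.8 to 45.5%), and the replicates gave 42.2, 37.8 and 35.0%. For over 150 and up to 300 bp the share was 32.9% (227 of 691), with 42.1, 30.1 and 22.3% in the replicates, and for over 300 and up to 500 bp it was 28.5% (190 of 667), with 38.7, 26.2 and 17.8%. The replicates of these neighbouring classes overlap, and in replicate 1 the closest class and the next were nearly equal. For 501 to 1000 bp it was 4.61% (31 of 672), with 8.18, 5.80 and 2.68%. The rule itself narrows the zone in which a summit can count as the TSSs move apart. With a zone of equal width for every pair, the summit within 500 bp of the midpoint, a count chosen after the values above were seen, the shares were 41.8, 33.3, 31.0 and 27.1%. The closest pairs then had 41.6, 38.0 and 35.2% in the replicates and the most distant 30.8, 25.6 and 22.8%, which do not overlap. This zone still reaches less far into the transcribed side of both genes in distant pairs than in close ones. The part of this in the shares was not tested. The plot of pairs by distance shows the shares under the rule.

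**Figure D2:**
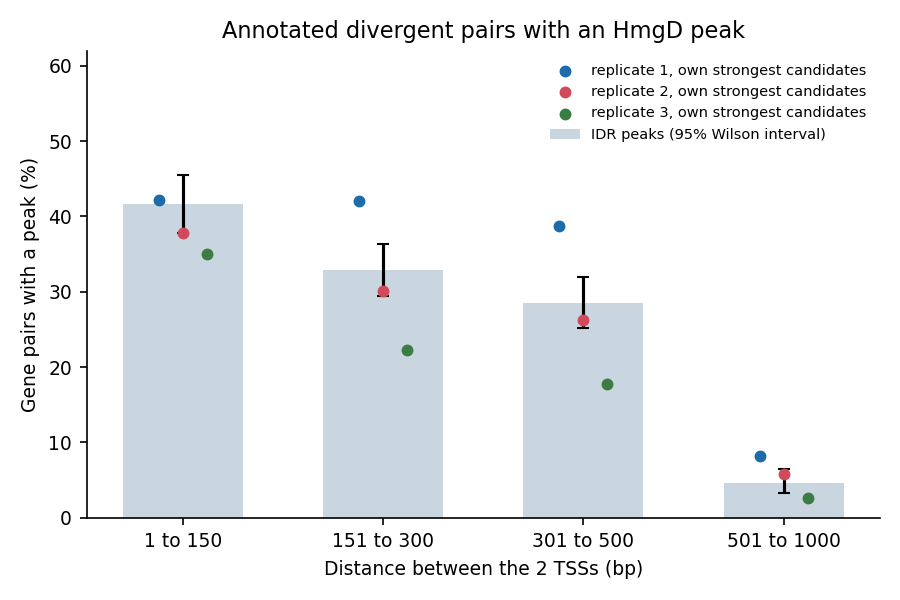
Share of annotated divergent gene pairs with an HmgD peak (%), by the distance between the TSSs of the pair (bp). Bars are IDR peaks with 95% Wilson intervals and points are each replicate's strongest 2964 candidates; the share falls from 41.6% at 1 to 150 bp to 4.61% at 501 to 1000 bp, where the rule allows only a narrow zone.

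Genes of divergent pairs had an HmgD peak at the promoter more often than other coding genes. The background was that 18.7% of all protein-coding genes had an IDR summit within 500 bp of a TSS, and 9.63% were at a divergent-pair peak. In divergent pairs 1604 of 5052 genes (31.7%) had a promoter peak of any kind, against 1005 of 8893 other coding genes (11.3%). By replicate the shares were 37.5, 30.1 and 26.0% in pairs and 10.8, 11.0 and 11.2% elsewhere, so the groups do not overlap. The difference averaged 20.2 ± 6.03 percentage points (SD, n = 3) and was above 0 in 3 of 3 replicates, with an exact sign-flip permutation p of 0.25, the smallest that 3 replicates can give. A peak between 2 close promoters counts for both genes, which raises the share of the pair genes by construction. The IDR difference of 20.4 percentage points was 11.3 without replicate 1 and 12.7 without replicate 2, when fewer peaks entered.

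Members were spread over the arms. Arm 3R held 185, 2R 136, 3L 132, 2L 124, X 89 and chromosome 4 held 2, and the share of annotated pairs with a peak was 30.6% on 3R, 26.8% on 3L, 26.3% on 2R, 23.1% on X and 18.2% on chromosome 4, where pairs are few. A single gene pair lay at 625 members, 37 members served 2 gene pairs and 6 served more, through overlapping genes or transcripts. Of these 6, the peak at pre-mod(mdg4)-E and pre-mod(mdg4)-Y alone served 21 gene pairs, all counted among the 713 pairs with a peak.

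Most summits lay between the start sites, and in pairs 300 to 500 bp apart they lay nearer to a start site than to the middle. In 527 of 668 members (78.9%, interval 75.6 to 81.8%) the summit was between both TSSs. In 68 it lay on the transcribed side of the minus-strand gene and in 73 on that of the plus-strand gene, by a median of 23 bp. The nearer TSS was that of the minus-strand gene in 331 members and that of the plus-strand gene in 334, so the strands were represented about equally. The median distance was 48 bp to the nearer TSS (quartiles 23 and 86), 188 bp to the farther one and 62.5 bp to the midpoint. In one-strand promoter peaks the median summit lay 48 bp upstream of the nearest TSS and 72.7% were upstream, while in members it lay 37 bp upstream of the nearest TSS.

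Where the TSSs were 1 to 150 bp apart, 133 of 219 summits (60.7%) were between them and the median summit was 27 bp from the midpoint. From there to 300 bp, 196 of 224 (87.5%) were between. The medians over all 224 were 58.5 bp from the midpoint and 61 bp from the nearer TSS. From 300 to 500 bp, 167 of 194 (86.1%) were between. The medians over all 194 were now 129 bp from the midpoint while still 58.5 bp from the nearer TSS. From the second of these classes to the third the distance to the nearer start site hardly changed, while that to the midpoint grew. In the closest class the median summit was as far from the nearer TSS (26 bp) as from the midpoint, and in the second class nearly so. Of the 167 summits between TSSs 300 to 500 bp apart, 36 (21.6%, interval 16.0 to 28.4%) fell in the central of 3 equal parts of the interval. Beyond 500 bp all 31 summits were between the TSSs, as the rule requires at this distance. They lay at a median of 153 bp from the nearer TSS and 140 bp from the midpoint. Of the 31, 9 (29.0%, interval 16.1 to 46.6%) fell in the central of 3 equal parts. The rule here also keeps summits away from both TSSs, in a zone around the midpoint, so these values cannot show a preferred position. The map of summits shows these positions.

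**Figure D3:**
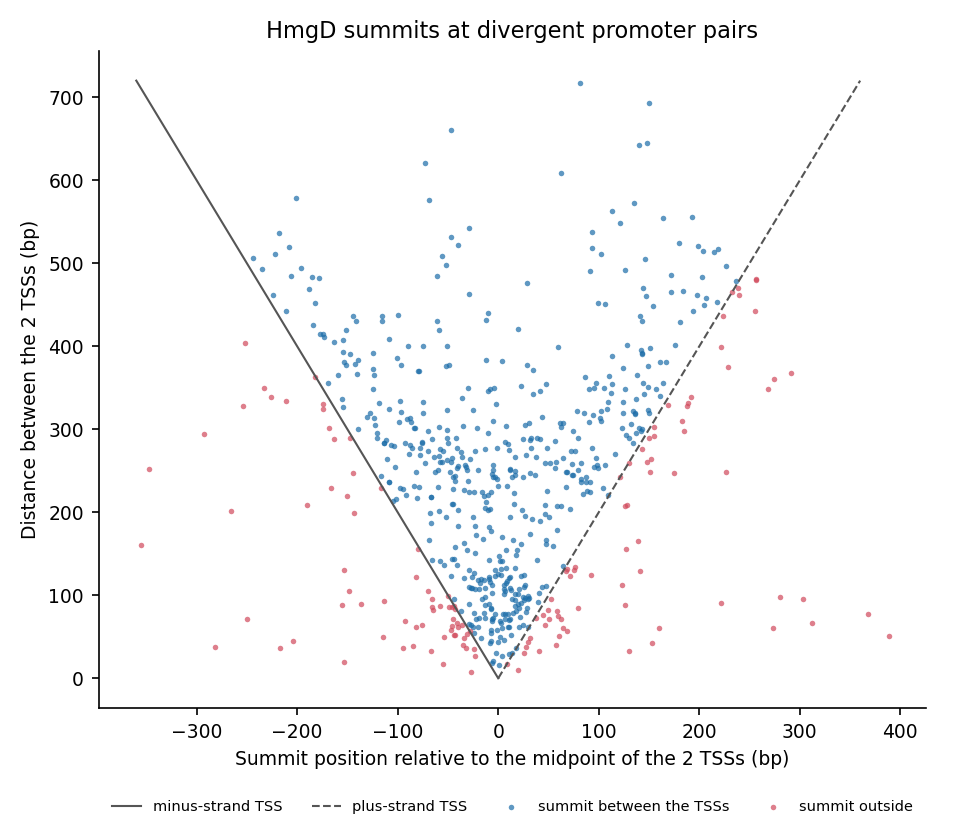
Position of each of the 668 member summits relative to the midpoint of its pair (bp) against the distance between the TSSs (bp), with lines for the minus-strand and plus-strand TSS. Points between the lines (527) are summits between the TSSs; of the 167 between TSSs 300 to 500 bp apart, 36 lie in the central of 3 equal parts.

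The replicates' own summits gave similar positions. Among matched candidates 79.7, 73.8 and 73.7% of summits lay between the TSSs (75.7 ± 3.46%, SD, n = 3), at a median of 52, 45 and 44 bp from the nearer TSS. The summits of a member ranged over a median of 47 bp across replicates (n = 639 members matched in all 3), and those of one-strand promoter peaks over 49 bp (n = 1261). In pairs over 150 bp apart, all 3 replicates placed the summit on the same side of the midpoint in 336 of 426 members (78.9%, interval 74.7 to 82.5%). Chro and Ssl1 had its summit 84, 95 and 112 bp inside Chro in the 3 replicates, and RpS27 and Nup37 had it 16, 24 and 18 bp from the RpS27 start, which is 144 bp from that of Nup37. Fragments of 200 to 800 bp were precipitated, so these distances are finer than the fragments and rest on the authors' summit calls.

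In 23 gene pairs there were 2 member peaks. Their summits were 199 to 266 bp apart, while the usual peak was 404 bp wide, so that the peaks of most such pairs overlap, and 1 broad region and 2 sites cannot be told apart. At AP-2alpha and ebi, a nuclear WD-repeat protein, the signals were 397 nearer to AP-2alpha and 217 beside the start of ebi. CG17271 and RpS20 had 360 and 197. Hs2st, a heparan sulfate sulfotransferase, and RanGAP, the activator of Ran GTP hydrolysis, had 350 and 126, so in these 3 pairs the signals were unequal.

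Several short words stood at other shares in members than in one-strand promoter peaks, in the same direction in 3 of 3 replicates, although 3 replicates cannot bring such a difference past a test. Words were searched on both strands within 100 bp of the summit, and CGATA is also contained in every TATCGATA. TATCGATA occurred in 95 of 668 members (14.2%, interval 11.8 to 17.1%), in 10.2% of one-strand promoter peaks, in 0.963% of peaks away from coding TSSs and around 6.45% of all coding TSSs. CGATA was in 53.1% of members (355) and 43.1% of one-strand peaks, against 37.1% around all coding TSSs. Motif 1, GGTCACAC, was in 78 members (11.7%) and 9.21% of one-strand peaks, with 5.68% around all coding TSSs. A member held TATCGATA or GGTCACAC in 163 cases (24.4%), and both in 10. Atg8a and BTBD9 was one of these 10.

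CAGCTG, an E-box, was in 126 members (18.9%) and 13.3% of one-strand peaks, with 13.4% around all coding TSSs. TATAAA was in 23.1% of members and 16.4% of one-strand peaks, both lower than the 26.9% around all coding TSSs. GAGAG, part of the GAGA factor's site, went the other way, with 17.4% of members, 31.2% of one-strand peaks and 36.0% of peaks away from coding TSSs. In the replicates' strongest candidates GAGAG was at 15.1, 16.3 and 18.4% of divergent-pair peaks and at 23.4, 32.4 and 35.9% of one-strand peaks. No replicate of the divergent-pair peaks reached any of the one-strand peaks for this word.

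The within-replicate differences, divergent-pair minus one-strand, were 5.93 ± 2.01 percentage points for TATCGATA, 12.4 ± 4.80 for CGATA and 3.68 ± 2.04 for GGTCACAC (SD, n = 3). They were 6.00 ± 1.04 for CAGCTG, 7.78 ± 0.858 for TATAAA and -13.9 ± 4.95 for GAGAG. Each of these 6 words had its sign in 3 of 3 replicates, with an exact sign-flip permutation p of 0.25, the smallest possible, and 0.344 after Benjamini-Hochberg adjustment over the 11 words. TCAGT and CAGGTAG also had 1 sign in 3 of 3 replicates and the same p-values, with differences of -1.38 ± 0.821 and 0.262 ± 0.195 percentage points, so this count does not set the 6 words apart. Between the IDR classes the difference for GGTCACAC was 2.47 percentage points, and 1.11 without replicate 3 and 3.76 without replicate 1. Median GC was 40.3% in members, 42.8% in one-strand peaks and 42.3% around all coding TSSs, and its part in the word shares was not tested. The IDR shares of the remaining words were close in both classes. AGGTGGCGC, the CTCF core, was in 0.898% of members and 0.884% of one-strand peaks, CAGGTAG, the Zelda site, in 0.749 and 0.737%, GTATTTTT in 6.74 and 6.12%, TCAGT in 31.6 and 33.5%, and AAAAAAA in 16.5 and 15.9%. Members with 2 close promoters hold both within the searched window, and the part of this in the word shares was not tested.

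**Figure D4:**
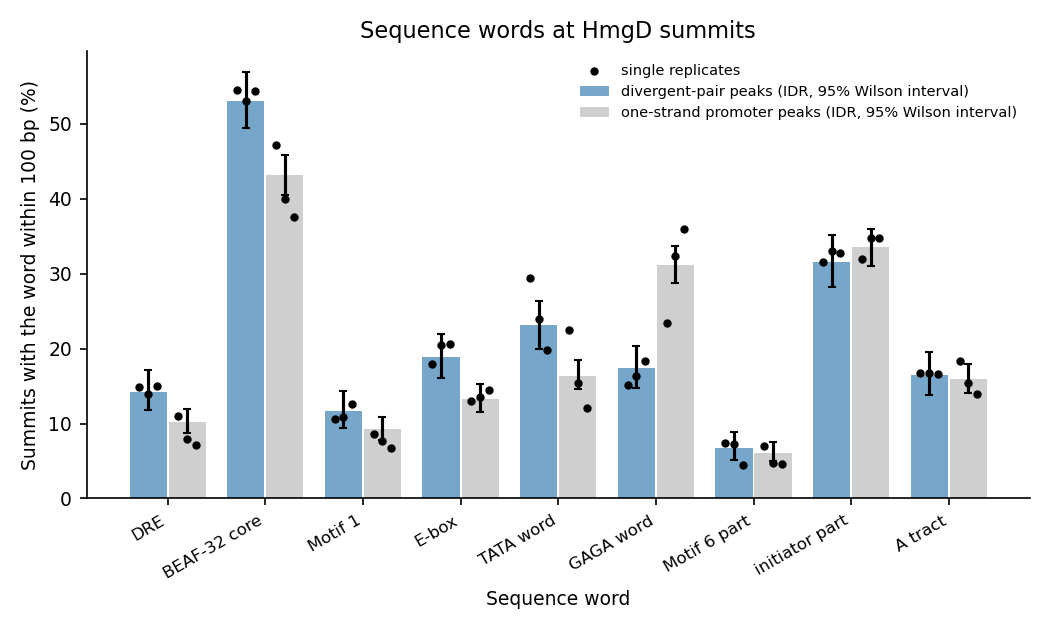
Share of summits with each word within 100 bp on either strand (%), for divergent-pair peaks (blue bars) and one-strand promoter peaks (grey bars), with 95% Wilson intervals; points are the replicates 1, 2 and 3 from left to right. The BEAF-32 core (CGATA) is at 53.1% against 43.1% and the GAGA word at 17.4% against 31.2%, and the 2 rarest words are left out.

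In replicates 1, 2 and 3 the median GC at divergent-pair peaks was 38.3, 40.3 and 42.3%, and at one-strand peaks 39.8, 43.8 and 46.3%. The difference was lower than 0 in 3 of 3 replicates, with a mean of -2.99 ± 1.32 percentage points (SD, n = 3; exact sign-flip permutation p = 0.25, the smallest possible). Both classes were poorer in GC in replicate 1 than in replicate 3. Between the IDR classes the difference was -2.49 percentage points, and -0.995 without replicate 2 and -1.49 without replicate 3. Around the midpoints of the annotated pairs the median GC was 36.3% for pairs with a peak and 32.3% for pairs without.

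TATCGATA was close to the summits and about as close to the start sites. The nearest copy lay a median of 23.5 bp from the summit and 29.5 bp from the nearer TSS (n = 95). It was within 25 bp of the summit in 48 of 95, and between the start sites in 79 (83.2%, interval 74.4 to 89.4%). GGTCACAC lay a median of 37.0 bp from the summit (n = 78) and 21.0 bp from the nearer TSS, and was between the TSSs in 45 of 78 (57.7%). CAGCTG lay 52.0 bp from the summit, about the middle of the searched 100 bp. Members with and without a word had near-equal signal, for example medians of 165 and 168 for TATCGATA and 159 and 169 for GGTCACAC.

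The midpoints of annotated pairs give a comparison in which summits do not place the searched window. Summits still decide which pairs count as having a peak. TATCGATA was within 100 bp of the midpoint in 12.6% of the 713 pairs with a peak and 7.06% of the 1954 without, CGATA in 48.2 and 38.7%, and GGTCACAC in 8.56 and 4.25%. TATAAA went the other way, in 28.5% of pairs with a peak and 43.9% without, and GAGAG differed little, in 15.8 and 14.1%. Pairs without a peak were farther apart, so that their midpoints lay farther from the promoters, and the part of this in the word shares was not tested.

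Among the gene lists the share of pair genes at a member peak was highest for cytoplasmic ribosomal proteins, followed closely together by trafficking genes, aminoacyl-tRNA synthetases and Polycomb and trithorax genes, and lowest for tissue-restricted families. Of all genes in annotated divergent pairs, 26.6% were at a member peak (25.6 ± 6.67% over the replicates, SD, n = 3), and each list below is set beside that share, with no test of the list. Cytoplasmic ribosomal protein genes had 29 of 56 pair genes at a member peak (51.8%, interval 39.0 to 64.3%). In replicate 1 they had 55.4% against 32.7% of all pair genes, in replicate 3 44.6% against 19.5%, and over the replicates a range of 44.6 to 55.4%. Their high share was not limited to pairs. Counting any promoter peak, in pairs or not, 58 of 93 of these genes (62.4%) had one, against 18.7% of all coding genes. By that count Polycomb and trithorax genes had 53.8%, translation factors 40.7% and cuticle protein genes 0%. Membrane trafficking genes had 36 of 86 (41.9%), with 47.7, 40.7 and 25.6%, against 32.7, 24.7 and 19.5% of all pair genes. Fur1 and Vps33B was the strongest peak of that list.

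Aminoacyl-tRNA synthetases, which charge tRNAs, had 10 of 24 (41.7%, interval 24.5 to 61.2%) and 33.3% in every replicate, with LeuRS-m at their strongest peak. Polycomb and trithorax genes had 6 of 15 (40.0%), but 42.2 ± 23.4% over the replicates (SD, n = 3), with 66.7% in replicate 1. Their strongest peak, of signal 264, was at Sfmbt, a subunit of the Polycomb recruiter PhoRC. Proteasome genes had 9 of 26 (34.6%), with Prosbeta1, a catalytic subunit, and Rrp42, an exosome subunit, at a peak of 271. Genes of ubiquitin conjugation and removal had 9 of 26 (34.6%), with the deubiquitinase Usp12-46 and rumi, which glucosylates Notch, at 466.

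DNA repair genes had 10 of 29 (34.5%), with Rad60 and EloA, the elongin subunit, at 299. Replication and cell cycle genes had 15 of 44 (34.1%), with Dp, the partner of E2F, and Fsn, an F-box protein, at 302. Respiratory chain and ATP synthase genes had 15 of 45 (33.3%), but 44.4, 33.3 and 15.6% in the replicates. The intervals of these 3 lists include the 26.6% of all pair genes. So do those of the synthetases, of Polycomb and trithorax genes (19.8 to 64.3%), and of proteasome and ubiquitin genes (each 19.4 to 53.8%). Only the intervals of cytoplasmic ribosomal protein genes and of trafficking genes (32.0 to 52.4%) lay wholly above that share. Mitochondrial ribosomal protein genes had 18 of 58 (31.0%), splicing genes 9 of 29 (31.0%), genes of Mediator, TFIID and the RNA polymerases 16 of 55 (29.1%), with Polr2H at 320, and translation factors 8 of 28 (28.6%). Mitochondrial ribosomal proteins stood close to the background although they held 2 of the 4 strongest pairs. Insulator and architectural proteins had 2 of 11 (18.2%), with Chro the strongest member of all.

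The tissue-restricted families rarely start head to head. Only 13 of 121 cuticle protein genes, 13 of 85 cytochrome P450 genes and 27 of 181 chemoreceptor genes were in a divergent pair, and none of the 27 segmentation and Hox genes was, against 36.2% of all coding genes. Of those pair genes, 0 cuticle protein genes, 0 P450 genes and 1 chemoreceptor gene were at a member peak. That one was Ir60e, an ionotropic receptor, which shares its peak of 159 with CG13585 and lies 295 bp from the summit, while CG13585 lies 27 bp from it. The lists were built from symbol patterns and a few symbols in them may not belong to the named group.

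**Figure D5:**
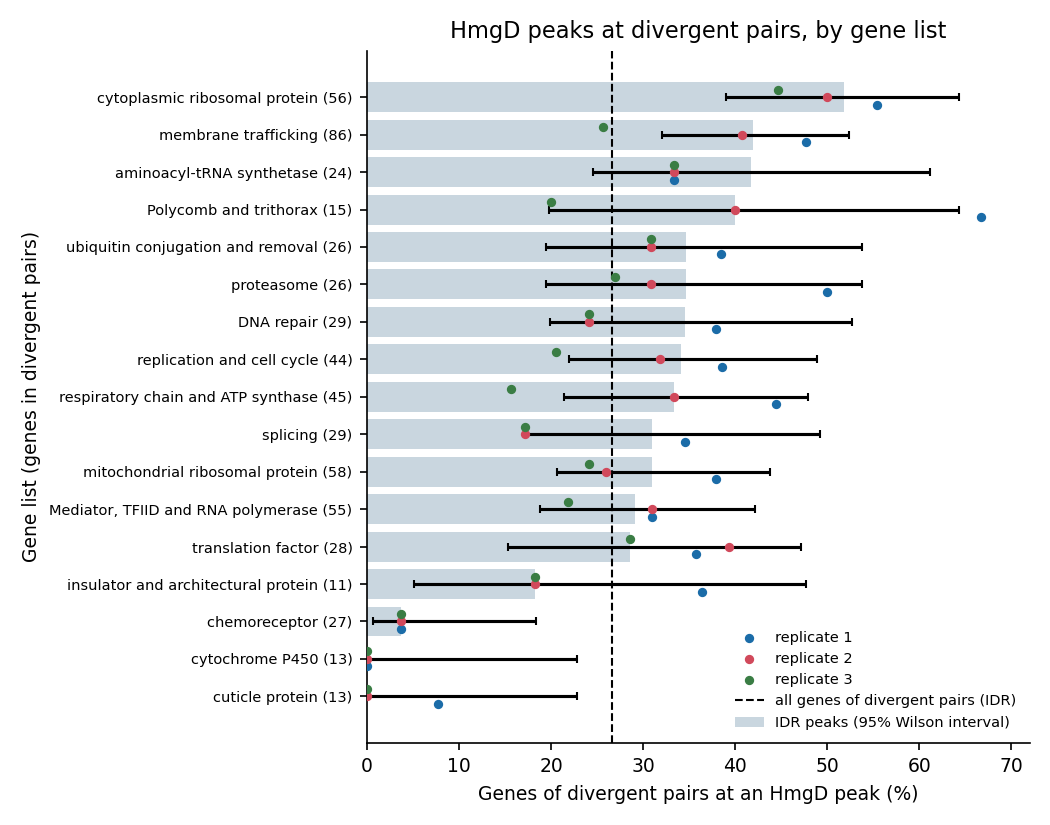
Share of the genes in divergent pairs that lie at a divergent-pair HmgD peak (%), by gene list with the number of pair genes in brackets; bars are IDR peaks with 95% Wilson intervals, points are replicates. The dashed line marks all genes of divergent pairs (26.6%); cytoplasmic ribosomal proteins (51.8%) stand highest and cuticle proteins and cytochrome P450 genes are at 0.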

How the data were processed

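Each of 3 biological replicates of HmgD-GFP embryos had a deposited dm6 list of candidate peaks with background entries, and the series had a pooled candidate list and the list passing the IDR threshold, derived with a control, as the deposited descriptions say. The control was not used here. For the aligner, the caller and the IDR cut-off, the sources used here give nothing. Signal is the authors' own value per peak, deposited in the narrowPeak lists, on a scale that differs between lists. It was used only to rank and describe peaks within a list. Summit positions are also the authors'. The lists hold no read counts, so depth is unknown, and Wilson intervals cover the sampling of peaks, pairs or genes only.

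Summits were set against the Release 6 sequence and TSSs of protein-coding transcripts from Ensembl 115. A member was assigned the TSS pair with the smallest summed distance. Replicate values used each replicate's strongest 2964 candidates, or candidates matched to IDR peaks as mutually nearest summits within 200 bp. Differences were tested with a two-sided exact sign-flip permutation test over replicates. Peaks and genes were never counted as replicates. The members, gene lists and words were chosen with earlier results of these data known. Genes named are those of the 10 strongest members, of the strongest member of each of 18 lists, and of members with both genes on 1 list; genes at the printed sequences and at the 3 strongest pairs with 2 peaks were added. Alternatives covered the TSS window, TSS distance, transcript choice, biotypes, matching, word window, the 1482 stronger IDR peaks and leaving out each replicate. Scripts (Python 3.11.15, numpy 2.4.6, pandas 2.3.3, scipy 1.17.1) were tested on simulated data.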

Additional observations from a re-analysis of the deposited data

How the results depend on the processing

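Of 118 recomputed values, 90 were counted as kept, 14 moved and 14 changed sign. A share was kept if it moved by less than the replicate SD, and a count if it stayed within a fixed factor. For the tested differences, kept means only that the sign held, whatever the change in size. No p-value could cross a threshold with so few replicates. The number of members was 443 with a TSS window of 250 bp, 382 among the 1482 stronger IDR peaks, and 361 to 470 on leaving out a replicate. The share of pairs with a peak was 18.5% with 250 bp, 34.5% with 1000 bp, 34.1% with TSSs at most 500 bp apart, 15.9% with the stronger peaks, and 14.5 to 19.6% on leaving out a replicate. In the latter case the IDR list gave way to 1498 to 1774 pooled candidates shared by the remaining replicates, so these counts fall by construction. The share of summits between the TSSs was 73.1% with 1000 bp and 79.2 to 82.6% on leaving out a replicate. The differences for the DRE, the BEAF-32 core, Motif 1, the E-box, the TATA word and the GAGA word, for GC and for pair genes against other genes kept their sign under every alternative run. Their sizes changed more: at 50 bp either side of the summit the difference was 1.5 for Motif 1, 1.62 for the E-box, 2.51 for the TATA word and -6.70 for the GAGA word, and at 200 bp it was 6.64 for the DRE and 4.15 for Motif 1. Motif 1 was at 1.51 with the stronger peaks and at 1.11 to 3.76 on leaving out a replicate. With a replicate left out, pair genes exceeded other genes by 11.3 to 15.7 percentage points, and the GC difference ranged from -0.995 without replicate 2 to -2.99 without replicate 1.

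Words with differences near 0 changed sign. With 200 bp either side the differences in percentage points were -0.207 for AGGTGGCGC, -0.193 for CAGGTAG, 0.162 for TCAGT and -0.962 for AAAAAAA, and with the stronger peaks they were -0.274 for AGGTGGCGC and 0.372 for TCAGT. Leaving out a replicate gave ranges of -0.552 to 0.104 for AGGTGGCGC, -0.0673 to 0.511 for CAGGTAG, -0.0467 to 1.45 for GTATTTTT, -1.86 to 1.78 for TCAGT and -0.631 to 0.331 for AAAAAAA. The cause was not tested. No paired analysis was possible because there was no second group to pair by replicate number, and the differences between peak classes were taken within each replicate throughout. The number of replicates limits every test here to a p of 0.25 or more.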
